A study of Caenorhabditis elegans with 30 samples.

Results

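The 7 genes described here encode the enzymes that build fatty acids in the cytosol and endoplasmic reticulum of Caenorhabditis elegans. They are acly-1 and acly-2 for ATP citrate lyase, pod-2 for acetyl-CoA carboxylase, fasn-1 for fatty acid synthase, and let-767, hpo-8 and art-1 for the partner enzymes of the elongation cycle. They were chosen by name for these roles, with earlier results of these data known, and are 7 of the 46739 rows of a table of raw read counts. The table covers 30 RNA-sequencing libraries in 6 groups of 5. L4 worms of the wild-type strain N2 were kept for 18 h on plates with 0 or 400 mM ethanol. They were harvested at once (0 h after exposure), or 6 h after transfer to ethanol-free plates. The strain RA503, which carries the deletion allele swsn-9(ok1354) in a background outcrossed to N2, was exposed at 0 and 400 mM in the same way and harvested at once. swsn-9 encodes a subunit of the SWI/SNF chromatin remodeling complex, and the deletion is present in all cells of these worms, not in 1 tissue. Each sample was a pool of whole hermaphrodites that had become first-day adults by the end of the exposure. Replicates were collected on different days. Since whole worms were used, fewer cells of a type and less RNA per cell cannot be told apart in any value below.

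Fatty acids are built from acetyl-CoA. ATP citrate lyase makes cytosolic acetyl-CoA from citrate that has left the mitochondria. Acetyl-CoA carboxylase, a biotin enzyme, adds a carboxyl group to give malonyl-CoA, the unit by which chains grow, and fatty acid synthase strings these units into saturated fatty acids. Longer chains are made in the endoplasmic reticulum by a cycle of condensation, reduction, dehydration and reduction. An elongase of the ELO family performs the condensation. LET-767 is the 3-ketoacyl-CoA reductase of the cycle, HPO-8 belongs to the 3-hydroxyacyl-CoA dehydratases, and ART-1 resembles the enoyl-CoA reductase that closes it. In worms the saturated products feed desaturases. The names of pod-2 and let-767 come from the defects of their mutants (polarity and osmotic sensitivity of embryos, and lethality).

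Positions are those of assembly WBcel235. acly-1 (WBGene00016995) lies on chromosome X at 1479542 to 1484087 on the plus strand with 8 exons. acly-2 (WBGene00007150) lies on chromosome V at 13116488 to 13120131, plus strand, with 6 exons, inside the span of max-1 on the opposite strand. pod-2 (WBGene00004076) lies on chromosome II at 1136785 to 1152705, plus strand, with 6 annotated transcripts of 6 to 11 exons. fasn-1 (WBGene00009342) lies on chromosome I at 8975366 to 8986540, minus strand, with 11 exons. let-767 (WBGene00002891) lies on chromosome III at 6338508 to 6339969, minus strand, with 4 transcripts. hpo-8 (WBGene00020517) lies on chromosome V at 6839289 to 6840256, plus strand, and art-1 (WBGene00000198) on chromosome II at 6970745 to 6972235, minus strand, each with 5 exons. All are protein-coding. Exons of pod-2, acly-2 and hpo-8 share 139, 51 and 40 bases with opposite-strand genes (W09B6.4, max-1 and lgc-54), and the sources used here do not state whether strand was used in counting. The highest counts of those neighbours in any library were 413, 177 and 42, against lowest counts of 6190 for pod-2, 5396 for acly-2 and 1041 for hpo-8.

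Counted reads per library ran from 11812827 to 23505210. Levels are given as CPM, each gene's counts as a share of its library's total brought to a common scale between libraries by the trimmed mean of M-values (TMM). The level of swsn-9 itself fitted the strain labels, with mean levels of 193 to 208 CPM in the 4 wild-type groups and of 59.5 and 61.1 CPM in the 2 mutant groups. In 3 libraries the ribosomal RNA gene rrn-3.1 took over 5% of all counts: 17.6% in replicate 1 of wild type 6 h after 400 mM, 6.26% in replicate 5 of wild type at 0 mM and 5.74% in replicate 1 of wild type 6 h after 0 mM. It took 0.24% to 1.34% in the other 27. Calls that changed without these 3 libraries are given with both values. Differences are log2 fold changes ± standard error from edgeR's quasi-likelihood test, with p adjusted over all genes by the Benjamini-Hochberg method, and a gene is said to have risen or fallen where the adjusted p was under 0.05.

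All 7 genes were well above the count filter in every library, and their lowest count was 1041. Compared per kilobase of exons, the median level over the 30 libraries was 217 CPM per kilobase for let-767, 173 for art-1, 137 for acly-2, 136 for hpo-8, 90.3 for pod-2, 83.5 for acly-1 and 31.6 for fasn-1. let-767 exceeded art-1, art-1 exceeded acly-2, and acly-1 exceeded fasn-1 in 30 of 30 libraries, and hpo-8 exceeded pod-2 in 29. The neighbours acly-2 and hpo-8 did not separate, with acly-2 the higher in 16 of 30, nor did pod-2 and acly-1, with pod-2 the higher in 19. At the median and per length, the 3 elongation partners thus stood above the carboxylase and the synthase. Among all 16813 genes with a length and a level, whose median was 3.81 CPM per kilobase, fasn-1 stood at percentile 76.2 and let-767 at 97.3, with the other 5 genes between. art-1 varied least, its highest group mean being 1.09 times its lowest. The same ratio was 1.72 for pod-2, 1.67 for fasn-1, 1.48 for acly-2, 1.39 for let-767, 1.36 for acly-1 and 1.30 for hpo-8.

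**Figure D1:**
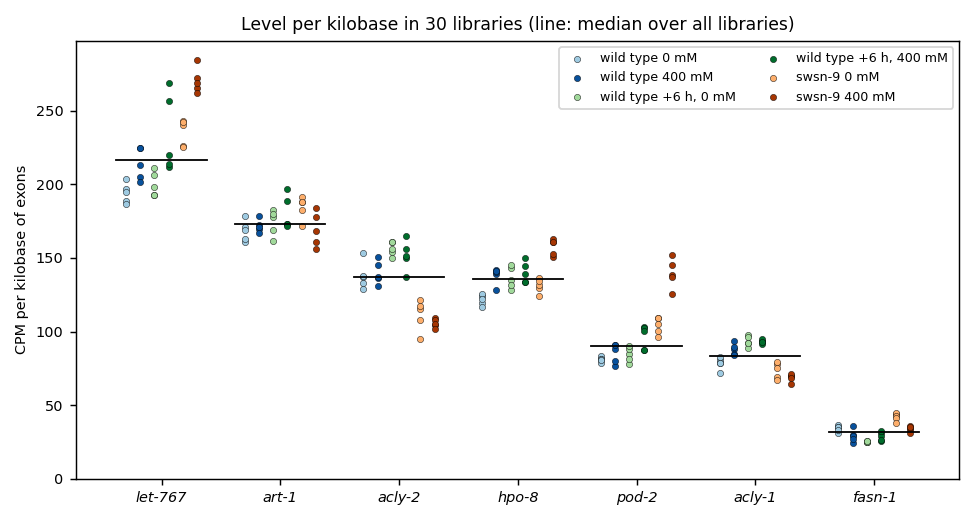
Level of each gene in CPM per kilobase of exons (vertical axis, from 0) in the 30 libraries, coloured by group, with a line at the median over all libraries. fasn-1, with a median of 31.6, lies below the other 6 genes, and let-767, with 217, lies above them.

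The first comparison asked what 18 h in ethanol did to the pathway in wild type. At the end of the exposure 2 of the 7 genes had risen and none had fallen. Over all 16210 genes tested 12.8% passed, 6.81% higher and 5.94% lower. The median change of the 7 genes was 0.083 on the log2 scale, against 0.0053 over all genes tested.

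Of the pair of citrate lyase genes, acly-1 rose. Its 5 libraries at 0 mM were at 271, 264, 277, 241 and 263 CPM and its 5 at 400 mM at 294, 283, 312, 282 and 299 CPM, so that every exposed library was above every unexposed one. The change was 0.17 ± 0.043 on the log2 scale (adjusted p = 0.00899, n = 5 and 5), an increase of 12.5% with a 95% interval of 5.83% to 19.6%. acly-2 was at 439 to 523 CPM without and 445 to 514 CPM with ethanol. Its difference was 0.031 ± 0.053 (adjusted p = 0.793), with an interval from −0.079 to 0.14.

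Acetyl-CoA carboxylase did not pass the test, and fatty acid synthase was close to its threshold. pod-2 was at 537, 571, 559, 558 and 555 CPM at 0 mM and at 622, 606, 624, 527 and 549 CPM at 400 mM, with overlapping groups and a wider spread under ethanol. Its difference was 0.083 ± 0.057 (adjusted p = 0.402). fasn-1 was at 260.2, 307, 296, 299 and 282 CPM at 0 mM and at 252, 305, 243, 203 and 229.6 CPM at 400 mM. Of the exposed libraries only replicate 2 was within the unexposed range, the other 4 lying below it. The difference was −0.22 ± 0.077 (adjusted p = 0.0603), and it passed the test without replicate 2 of the exposed group (−0.31, adjusted p = 0.00338) or replicate 1 of the unexposed group (−0.26, adjusted p = 0.0414). It also passed with DESeq2 and with all 30 libraries in the edgeR fit, as used for the mutants (both −0.23, adjusted p = 0.0366 and 0.0306). Over the 10 fits that each left out 1 library, the difference ran from −0.31 to −0.16 (adjusted p = 0.00338 to 0.190). Over the 8 alternative fits of other kinds, adjusted p ran from 0.0110 to 0.119.

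Of the elongation partners, hpo-8 rose. It was at 90.3, 88.4, 94.0, 95.1 and 92.3 CPM at 0 mM and at 105, 106, 97.2, 108 and 107 CPM at 400 mM. The groups did not overlap, which held for 9.04% of all genes tested and, among the 7, for hpo-8 and acly-1. The change was 0.19 ± 0.045 (adjusted p = 0.00467), an increase of 14.4% with an interval of 7.30% to 22.0%. let-767 was at 209 to 228 CPM without and 225 to 251 CPM with ethanol, a difference of 0.15 ± 0.059 (adjusted p = 0.110). art-1 was at 170.1 to 189 CPM and 177 to 189 CPM, a difference of 0.037 ± 0.046 (adjusted p = 0.693). Among the 5 intestinal markers examined 1 was higher and 2 were lower with ethanol, their summed level being 652 to 785 CPM without and 543 to 682 CPM with it. Of 4 early embryo markers 3 were lower, at sums of 3.72 to 8.32 CPM and 2.59 to 4.93 CPM. The part of the markers in these results was not tested.

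**Figure D2:**
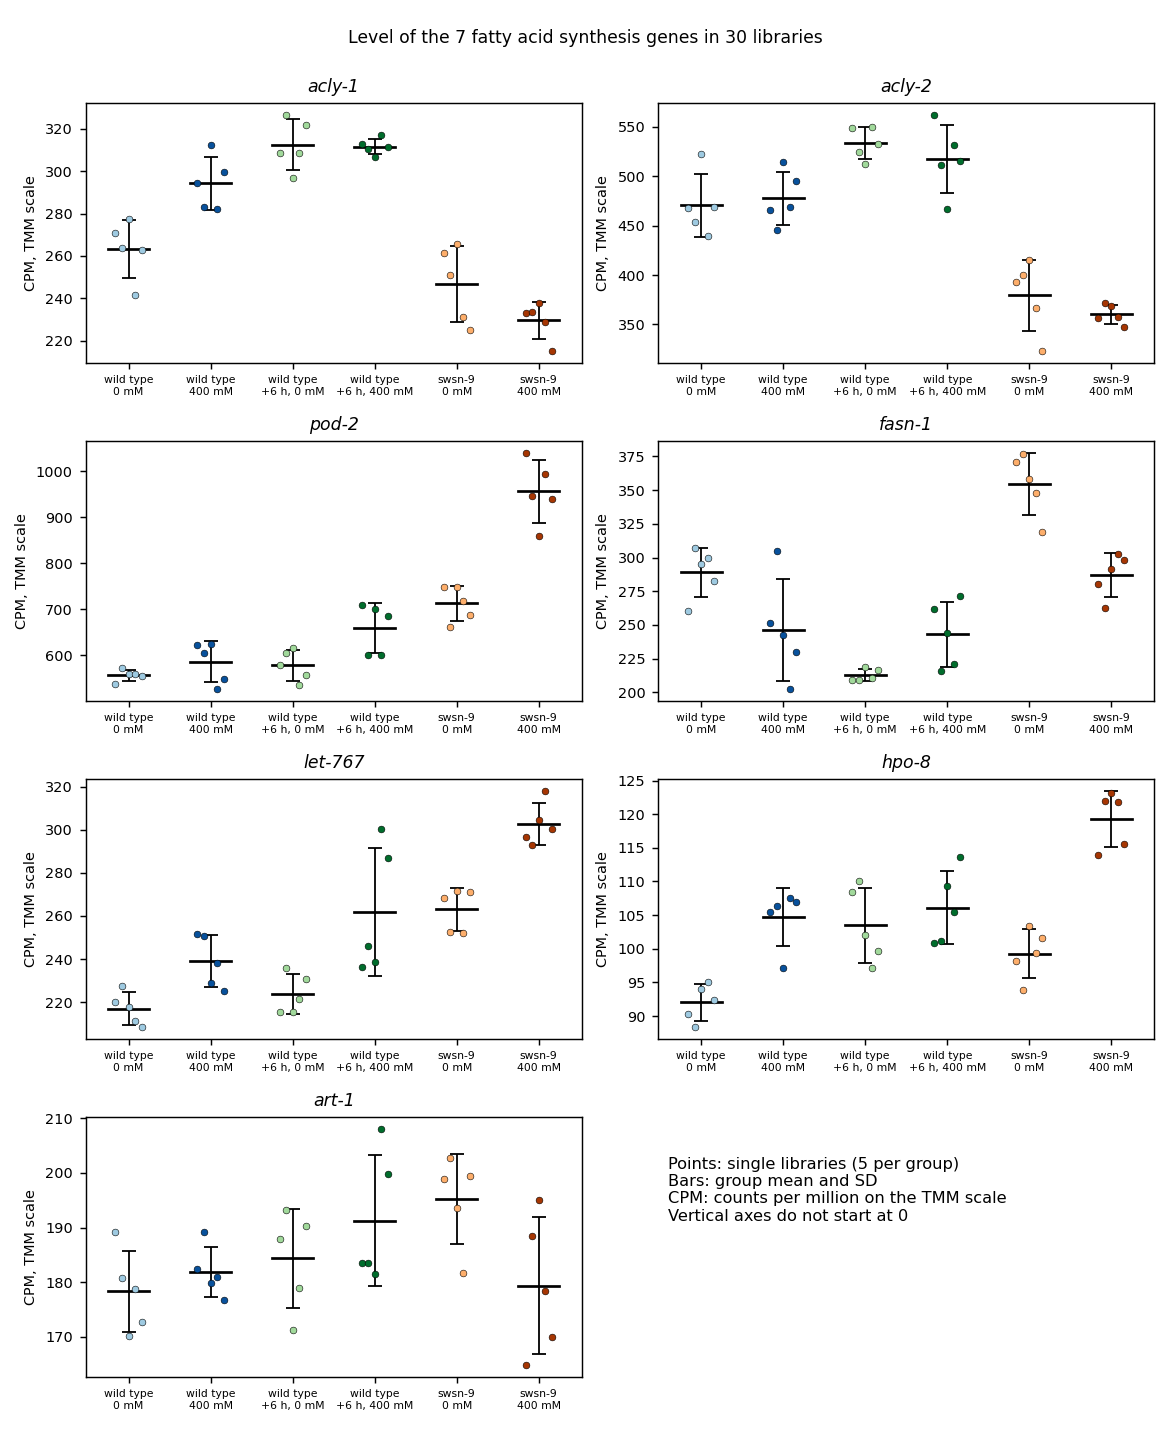
CPM on the TMM scale (vertical axes, not starting at 0) of each gene in the 6 groups, with 1 point per library, the group mean as a thick line and the SD as an error bar. pod-2 is highest in the 5 swsn-9 libraries at 400 mM (859 to 1039.8 CPM), and fasn-1 has its lowest mean and narrowest range in wild type 6 h after 0 mM (209 to 219 CPM).

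The next comparison asked what was left 6 h after the worms had been taken off ethanol, against worms of the same age transferred from 0 mM. let-767 rose, and it was the only one of the 7 to pass, where 3.94% of all genes did, 2.78% higher and 1.16% lower. Over all genes tested, 451 were higher and 188 lower, or 424 and 278 with the size factors of DESeq2 as the scaling. let-767 was at 216, 236, 216, 222 and 231 CPM after 0 mM and at 237, 246, 239, 300.3 and 287 CPM after 400 mM. The groups did not overlap, though the lowest exposed library, at 236.5 CPM, was barely above the highest unexposed one, at 235.9 CPM (non-overlapping groups were found for 6.47% of all genes), and replicates 4 and 5 stood above the other 3 exposed libraries. The change was 0.23 ± 0.059 (adjusted p = 0.0260), an increase of 17.3% with an interval of 7.82% to 27.6%. It did not pass without any 1 of 6 of these 10 libraries (replicates 1, 3, 4 and 5 after 0 mM, and replicates 4 and 5 after 400 mM, adjusted p = 0.0506 to 0.0901), nor without the 3 libraries rich in rrn-3.1 (0.24, adjusted p = 0.0537).

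pod-2 and fasn-1 both had higher means after ethanol at this time, and neither passed. pod-2 was at 579, 604, 616, 535 and 556 CPM after 0 mM and at 708, 600.5, 700.0, 600.3 and 686 CPM after 400 mM, a difference of 0.19 ± 0.057 (adjusted p = 0.0556). It passed without replicate 2 or replicate 4 of the exposed group (adjusted p = 0.0412 and 0.0305), with DESeq2 (0.18, adjusted p = 0.0346) and with all 30 libraries in the fit (0.19, adjusted p = 0.0485). Over the 10 fits that each left out 1 library, pod-2 differed by 0.15 to 0.22 (adjusted p = 0.0305 to 0.172). Over the 8 alternative fits of other kinds, it differed by 0.16 to 0.19 (adjusted p = 0.0117 to 0.211). fasn-1 was at 209, 209, 219, 210.5 and 217 CPM and at 262, 216, 244, 221 and 272 CPM, a difference of 0.20 ± 0.077 (adjusted p = 0.172). Its 5 libraries after 0 mM lay close together, and replicate 2 of the exposed group was within their range and replicate 4 just above it. acly-1 was at 297 to 327 CPM and 307 to 317 CPM, with a difference of 0.00062 ± 0.043 on the log2 scale (adjusted p = 0.996) and an interval of −0.087 to 0.089. acly-2, hpo-8 and art-1 differed by −0.040 ± 0.053, 0.042 ± 0.044 and 0.058 ± 0.045 (adjusted p = 0.735, 0.660 and 0.523). Of the intestinal markers 3 of 5 were higher after ethanol, at sums of 475 to 596 CPM and 505 to 553 CPM, 1 of 5 germline markers was lower, and their part in these results was not tested.

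**Figure D3:**
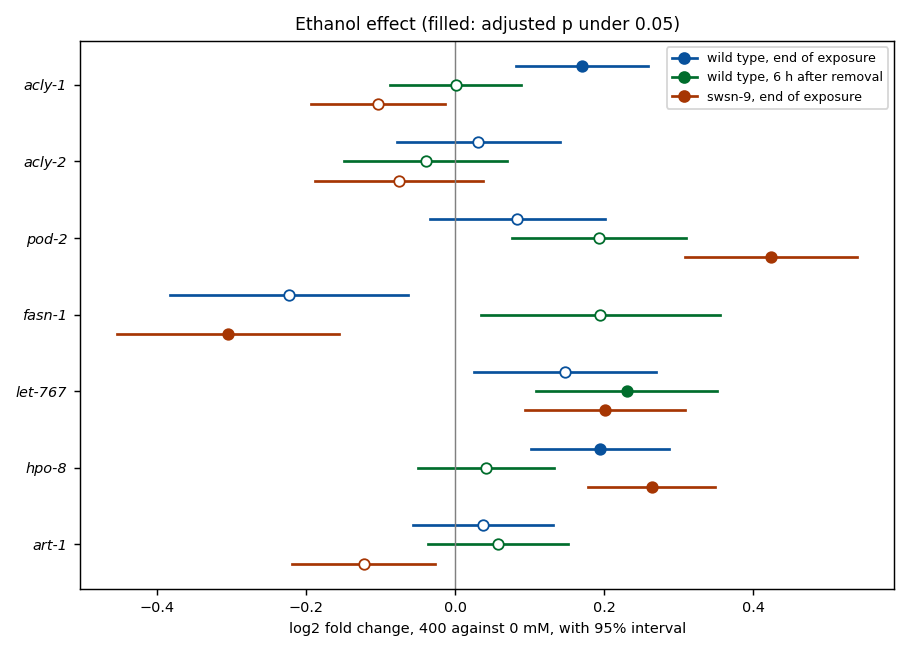
Log2 fold change of 400 against 0 mM ethanol (horizontal axis) with its 95% interval for each gene, in wild type at the end of exposure, in wild type 6 h after removal and in swsn-9 at the end of exposure, where filled points passed at an adjusted p under 0.05. pod-2 lies furthest right in swsn-9 at 0.42, and fasn-1 lies left of 0 in both end-of-exposure comparisons and at 0.20 at 6 h.

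The ethanol effects of the 2 times were then compared with each other. fasn-1 was the only one of the 7 to differ, where 5.28% of all genes did, 2.18% with the effect more positive at the end of exposure and 3.10% with it more negative. Its effect was lower at the end of exposure by 0.42 on the log2 scale (−0.42 ± 0.11, adjusted p = 0.0237, n = 5 in each of 4 groups). Its mean level was 289 CPM without and 246 CPM with ethanol at 0 h, and 213 and 243 CPM at 6 h. The call was lost without any 1 of 6 of the 20 libraries (replicates 4 and 5 at 400 mM and 0 h, replicates 2 and 4 at 0 mM and 6 h, and replicates 1 and 5 at 400 mM and 6 h, adjusted p = 0.0520 to 0.0681), and without the 3 rrn-3.1-rich libraries (−0.39, adjusted p = 0.0841). Values for acly-1 and hpo-8, whose means rose with ethanol at 0 h, were 0.17 ± 0.060 and 0.15 ± 0.063 for the same difference, with adjusted p = 0.114 and 0.187. acly-1 passed with DESeq2 (0.17, adjusted p = 0.0460), and over the 7 alternative fits other than single libraries left out adjusted p ran from 0.0281 to 0.173. For pod-2, let-767, acly-2 and art-1 the values lay between −0.11 and 0.070 (adjusted p = 0.527 to 0.914).

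The same wild-type groups, compared across time within 1 dose, showed how the pathway stood 6 h later. These comparisons share their groups with the ethanol comparisons, and the passage of 6 h, the transfer to new plates and the greater age of the worms cannot be told apart. At 0 mM, 4 of the 7 genes changed, where 19.1% of all genes did, 8.19% higher and 10.9% lower. acly-1 rose from 263 ± 13.6 to 312 ± 11.9 CPM (SD, n = 5 and 5), by 0.26 ± 0.043 on the log2 scale (adjusted p = 0.000334), with no overlap (as in 12.1% of all genes tested). acly-2 rose from 471 ± 31.7 to 533 ± 15.8 CPM, by 0.19 ± 0.053 (adjusted p = 0.0153), its earlier replicate 3, at 523 CPM, lying within the later range. hpo-8 rose from 92.0 ± 2.72 to 103 ± 5.59 CPM, by 0.18 ± 0.045 (adjusted p = 0.00838), with no overlap. fasn-1 fell, from 289 ± 18.5 to 213 ± 4.60 CPM, a change of −25.9% with an interval of −33.7% to −17.2% (log2 fold change −0.43 ± 0.078, adjusted p = 0.000641), and again without overlap. Both citrate lyase genes and fatty acid synthase thus changed in opposite directions. pod-2, let-767 and art-1 differed by 0.064 ± 0.057, 0.053 ± 0.059 and 0.057 ± 0.046 (adjusted p = 0.474, 0.584 and 0.424). Without the 3 rrn-3.1-rich libraries, acly-2 and hpo-8 no longer passed (0.18 and 0.16, adjusted p = 0.0593 and 0.0515), and acly-2 did not without replicate 4 of the earlier group (0.16, adjusted p = 0.0557). Of the markers examined, 4 of 5 for intestine and 2 of 4 for body wall muscle were lower at 6 h, the intestinal sum going from 652 to 785 CPM to 475 to 596 CPM. Of 5 germline markers 2 were higher and 2 lower, of 4 hypodermal ones 1 was higher and 1 lower, and 2 of 3 sperm markers were lower, at sums of 1.33 to 7.62 CPM and at most 2.77 CPM. Their part in these results was not tested.

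After 400 mM, 1 of the 7 genes changed over the same 6 h, where 25.0% of all genes did, 11.3% higher and 13.7% lower. pod-2 rose from a mean of 586 CPM (527 to 624) to one of 659 CPM (600.3 to 708), by 0.17 ± 0.057 (adjusted p = 0.0263), with overlapping groups. It did not pass without any 1 of 5 libraries (replicates 4 and 5 at 0 h, and replicates 1, 3 and 5 at 6 h, adjusted p = 0.0637 to 0.0946) or without the 3 rrn-3.1-rich libraries (0.14, adjusted p = 0.101). fasn-1, at 246 ± 37.5 and 243 ± 24.4 CPM, differed by −0.015 ± 0.077 (adjusted p = 0.918), with an interval of −0.17 to 0.15. acly-1, acly-2 and let-767 differed by 0.086 ± 0.043, 0.12 ± 0.053 and 0.14 ± 0.059 (adjusted p = 0.149, 0.107 and 0.0957), and art-1 and hpo-8 by 0.077 ± 0.045 and 0.024 ± 0.044 (adjusted p = 0.232 and 0.746). At this dose 2 of 5 intestinal and 2 of 3 sperm markers were lower at 6 h, 1 germline marker was higher and 2 lower, 1 hypodermal marker was higher and 1 lower, and 1 neuronal marker was higher. Intestinal sums were 543 to 682 CPM at 0 h and 505 to 553 CPM at 6 h, and the part of the markers was not tested.

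The exposure was repeated in swsn-9 mutants to see which responses the remodeling complex is needed for. In the mutants 4 of the 7 genes changed with ethanol, pod-2, let-767 and hpo-8 rising and fasn-1 falling. Of all 16934 genes tested 24.3% changed, 10.1% higher and 14.3% lower (1702 and 2417 genes). This split was 2090 and 1928 with only the 2 mutant groups in the fit, and 1517 and 2790 among genes of a mean count of at least 10. In each of the 4 genes of the pathway the groups did not overlap, which held for 16.9% of all genes tested. pod-2 was at 747, 662, 748, 718 and 686 CPM at 0 mM and at 1039.8, 947, 859, 995 and 939 CPM at 400 mM. Every exposed library was far above every unexposed one. The change was 0.42 ± 0.057 (adjusted p = 1.58e-06), an increase of 34.2% with an interval of 23.8% to 45.4%.

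fasn-1 fell in the mutants. It was at 371, 377, 359, 348 and 319 CPM at 0 mM and at 281, 262, 291, 303 and 298 CPM at 400 mM. It changed by −19.1%, with an interval of −27.0% to −10.2% (log2 fold change −0.30 ± 0.073, adjusted p = 0.00251), so that the carboxylase and the synthase, which act in sequence, changed in opposite directions. hpo-8 was at 98.2, 93.9, 103, 99.4 and 102 CPM without and at 114, 122, 123, 122 and 116 CPM with ethanol. It rose by 0.26 ± 0.042 (adjusted p = 2.05e-05). let-767 was at 268, 253, 272, 252 and 271 CPM without and at 297, 293, 304, 318 and 300.5 CPM with ethanol. It rose by 0.20 ± 0.052 (adjusted p = 0.00517). let-767 also passed in all 10 fits that each left out a mutant library, where the TMM scaling was computed anew. Its rise was smaller in every such fit, at 0.149 to 0.186 (adjusted p = 0.0115 to 0.0453).

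The third elongation partner, art-1, was near the threshold. It was at 199, 203, 194, 182 and 199 CPM without and at 165, 189, 195, 178 and 169.9 CPM with ethanol. Its difference was −0.12 ± 0.047 (adjusted p = 0.0551), and it passed without any 1 of the 10 mutant libraries (−0.20 to −0.14, adjusted p = 0.00167 to 0.0372), where the TMM scaling was computed anew. It also passed with DESeq2 (adjusted p = 0.0389), with DESeq2's size factors (adjusted p = 0.0497) and among genes of a mean count of at least 10 (adjusted p = 0.0204), at −0.14 to −0.13. Not every alternative passed. Over the 7 alternative fits of other kinds than single libraries left out, art-1 ran from −0.14 to −0.087 (adjusted p = 0.0204 to 0.203). acly-1, at 225 to 265 CPM and 215 to 238 CPM, differed by −0.10 ± 0.044 (adjusted p = 0.0851), and passed without any 1 of 7 of those 10 libraries (all but replicates 1 to 3 at 0 mM, adjusted p = 0.00622 to 0.0455) and among genes of a mean count of at least 10 (−0.12, adjusted p = 0.0327). Over the same 7 alternative fits of other kinds, acly-1 ran from −0.12 to −0.066 (adjusted p = 0.0291 to 0.299). acly-2 differed by −0.076 ± 0.055 (adjusted p = 0.331) and passed without replicate 5 at 0 mM (−0.16, adjusted p = 0.0254). Of the markers, 3 of 5 for intestine were higher and 1 lower, at sums of 687 to 809 CPM without and 594 to 724 CPM with ethanol, and 2 of 4 for body wall muscle and 1 each for hypodermis, neurons and early embryos were lower. Their part in these results was not tested.

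The difference between the ethanol effects of mutants and wild type at the end of exposure passed for 2 of the 7 genes, where it did for 4.15% of all genes, 1.40% more positive and 2.75% more negative in the mutants (237 and 466 genes). That split was 238 and 291 with only the 4 groups in the fit, and 247 and 721 among genes of a mean count of at least 10. The effect on pod-2 was more positive in the mutants by 0.35 ± 0.080 (adjusted p = 0.00859, n = 5 in each of 4 groups), its mean going from 556 to 586 CPM in wild type and from 712 to 956 CPM in the mutants. Without replicate 1 of the mutants at 400 mM, the highest library, the difference was 0.26 and did not pass (adjusted p = 0.0613). The effect on acly-1 was more negative in the mutants, by 0.26 on the log2 scale (−0.26 ± 0.062, adjusted p = 0.0104). Its mean went from 263 to 294 CPM in wild type and from 247 to 230 CPM (229.6) in the mutants. With only the 4 groups compared in the fit it was −0.23 (adjusted p = 0.0611). For the other 5 genes the difference did not pass. It was 0.063 ± 0.074 for let-767 (interval −0.089 to 0.21), 0.078 ± 0.059 for hpo-8 (−0.043 to 0.20), −0.073 ± 0.10 for fasn-1 (−0.28 to 0.14), −0.098 ± 0.078 for acly-2 (−0.26 to 0.062) and −0.15 ± 0.067 for art-1 (−0.29 to −0.015), with adjusted p = 0.236 to 0.774.

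Loss of swsn-9 itself was compared with wild type at each dose, in groups that the ethanol comparisons also use. At 0 mM 6 of the 7 genes differed, 5 higher and 1 lower. That comparison also called 45.5% of all genes, 23.2% higher and 22.3% lower. At 400 mM 6 differed as well, 4 higher and 2 lower, where 52.4% of all genes did, 26.8% higher and 25.6% lower. The median over all genes tested was 0.060 at 0 mM and 0.14 at 400 mM, the latter 0.017 when only genes of a mean count of at least 10 were kept, and the values below are to be set against it.

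The carboxylase, the synthase and let-767 were higher in the mutants at both doses. pod-2 was 28.1% higher at 0 mM (interval 18.2% to 38.8%, adjusted p = 6.58e-06) and 63.3% higher at 400 mM (50.6% to 77.0%, adjusted p = 2.38e-11). All its 10 mutant libraries, at 662 CPM or more, were above all 10 wild-type libraries of 0 h, at 624 CPM or less. fasn-1 was higher by 0.29 ± 0.073 at 0 mM (adjusted p = 0.00140), with no overlap, and by 0.22 ± 0.073 at 400 mM (adjusted p = 0.0122), where replicate 2 of the exposed wild type lay above all 5 mutant libraries. The latter did not pass without replicate 4 of the exposed wild type (0.16, adjusted p = 0.0594). let-767 was higher by 0.28 ± 0.053 and 0.34 ± 0.053 (adjusted p = 7.32e-05 and 2.81e-06), without overlap at either dose.

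hpo-8 was higher by 0.11 ± 0.042 at 0 mM (adjusted p = 0.0345) and by 0.19 ± 0.042 at 400 mM (adjusted p = 0.000371), and only at 400 mM did the groups not overlap. art-1 was higher by 0.13 ± 0.047 at 0 mM (adjusted p = 0.0235), and differed by −0.020 ± 0.047 at 400 mM (adjusted p = 0.745), where its sign turned under other scalings. At 0 mM the call for hpo-8 was lost without replicate 2 or 5 of wild type or replicate 4 of the mutants (adjusted p = 0.0511 to 0.0890), and that for art-1 without replicate 3 or 5 of wild type (adjusted p = 0.0675 and 0.0566).

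Of the citrate lyase genes, acly-2 was lower in the mutants at both doses and acly-1 at 400 mM. acly-2 was at 393, 400.4, 415, 367 and 323 CPM in mutants at 0 mM and at 356, 371, 369, 358 and 347 CPM at 400 mM, all below the wild-type libraries of 439 CPM or more. Its difference from wild type was −19.3% at 0 mM (interval −25.4% to −12.8%, log2 fold change −0.31 ± 0.055, adjusted p = 3.28e-05) and −24.6% at 400 mM (−30.3% to −18.5%, −0.41 ± 0.055, adjusted p = 3.69e-07). acly-1 differed by −22.0% at 400 mM (−26.7% to −17.0%, −0.36 ± 0.044, adjusted p = 7.15e-08), with no overlap. At 0 mM its difference was −0.093 ± 0.044 (adjusted p = 0.0852), and it passed without replicate 4 of wild type (−0.12, adjusted p = 0.0246). Non-overlapping groups were found for 4 of the 7 genes at 0 mM and 5 at 400 mM, against 30.2% and 36.4% of all genes tested.

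Tissue markers differed with the genotype as well, in comparisons that called 45.5% of all genes at 0 mM and 52.4% at 400 mM. Of 5 germline markers 5 were lower in the mutants at both doses, with summed levels of 4157 to 4423 CPM in wild type and 2897 to 3262 CPM in mutants at 0 mM, and of 3783 to 4253 and 2936 to 3107 CPM at 400 mM. Of 4 markers of body wall muscle 3 and 2 were higher at 0 and 400 mM (summed 1702 to 2517 against 2274 to 3168 CPM at 0 mM), and of 5 neuronal markers 4 and 4 (184 to 205 against 217 to 223 CPM at 0 mM). Of 5 intestinal markers 2 and 3 were higher, and 1 and 1 of 3 sperm markers. At 0 mM 2 of 4 hypodermal markers were higher and 2 of 4 early embryo markers lower. At 400 mM 2 hypodermal markers were higher and 1 lower, and 1 early embryo marker was higher and 2 lower. Every listed marker was detected in every group. The part of these shifts in the genotype differences of the 7 genes was not tested.

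**Figure D4:**
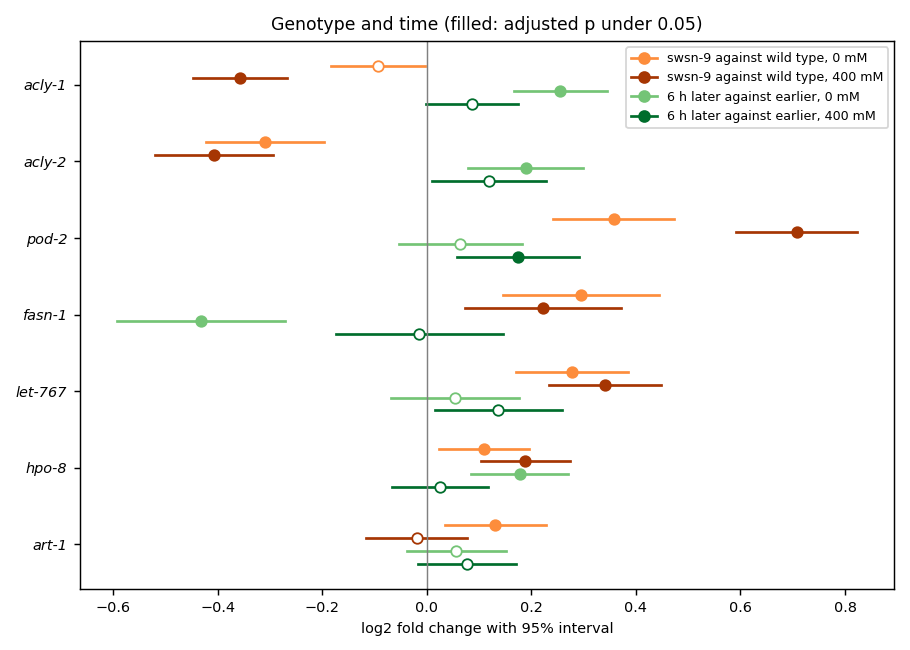
Log2 fold change (horizontal axis) with its 95% interval for each gene between swsn-9 and wild type at 0 and 400 mM, and between 6 h and 0 h after exposure in wild type at 0 and 400 mM, where filled points passed at an adjusted p under 0.05. acly-1 and acly-2 lie left of 0 in the genotype comparisons and right of it in the time comparisons, and fasn-1 does the reverse at 0 mM.

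Since pod-2 and fasn-1 act in sequence, the ratio of their counts was formed within each library, which needs no scaling between libraries. The ratios were chosen after the values had been seen, and 14 comparisons of 2 ratios were tested by exact two-sided permutation of 5 against 5 libraries, where the smallest p possible is 0.00794. The ratio was 1.93 ± 0.0859 in wild type at 0 mM and 2.40 ± 0.248 at 400 mM (SD, n = 5 and 5, exact p = 0.0159, adjusted over the 14 p = 0.0370), with replicate 2 of the exposed group, at 1.99, within the unexposed range. At 6 h it was 2.72 ± 0.153 after 0 mM and 2.72 ± 0.127 after 400 mM (exact p = 0.968). Thus the wild-type ratio was higher in every library at 6 h than in any at 0 h and 0 mM, whichever dose preceded. In the mutants it was 2.01 ± 0.153 at 0 mM and 3.34 ± 0.315 at 400 mM (exact p = 0.00794, the smallest possible, adjusted p = 0.0222), and no library of 1 group reached the other. Mutants and wild type did not differ beyond their spread at 0 mM (exact p = 0.317), and did at 400 mM (exact p = 0.00794, adjusted p = 0.0222), again without overlap. From 0 h to 6 h in wild type the ratio rose both at 0 mM (exact p = 0.00794, adjusted p = 0.0222) and at 400 mM (exact p = 0.0238, adjusted p = 0.0476), with overlapping groups at 400 mM.

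**Figure D5:**
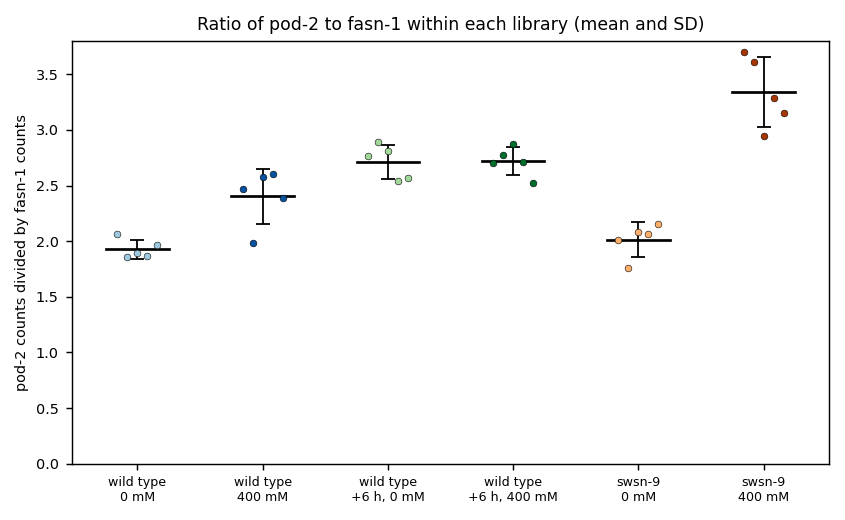
pod-2 counts divided by fasn-1 counts (vertical axis, from 0) in each library of the 6 groups, with group mean and SD. The mean goes from 1.93 to 2.40 with ethanol in wild type at 0 h and from 2.01 to 3.34 in swsn-9, and is 2.72 after both doses at 6 h.

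The ratio of acly-1 to acly-2 went from 0.560 ± 0.0212 to 0.617 ± 0.0157 with ethanol in wild type at 0 h (exact p = 0.00794, adjusted p = 0.0222, n = 5 and 5), without overlap, and was 0.586 ± 0.0265 and 0.604 ± 0.0360 at 6 h (exact p = 0.397). In the mutants it was 0.651 ± 0.0290 and 0.637 ± 0.0135 (exact p = 0.397). At 0 mM every mutant library was above every wild-type one (exact p = 0.00794, adjusted p = 0.0222), while at 400 mM the groups overlapped (exact p = 0.0635, adjusted p = 0.111). From 0 h to 6 h it did not differ beyond the spread at 0 mM (exact p = 0.135) or at 400 mM (exact p = 0.50).

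The patterns of the genes over all 30 libraries were compared with each other and with 7111 genes of at least 10 CPM, by the root-mean-square difference of log2 CPM after each gene's mean was removed. This is a description, since the libraries share groups, scaling and tissue make-up. acly-1 and acly-2 were close to each other (0.090, against medians of 0.17 and 0.19 to all genes). acly-2 was the 210th nearest gene to acly-1, and acly-1 the 422nd nearest to acly-2. let-767 and hpo-8 were closer in rank (0.12), hpo-8 being the 13th nearest to let-767 and let-767 the 77th nearest to hpo-8. let-767 was the 29th nearest to pod-2 (0.17), and pod-2 the 177th nearest to let-767. pod-2 and fasn-1 were further apart (0.29, against medians of 0.39 and 0.36 to all genes). fasn-1 ranked 983rd for pod-2, and pod-2 1173rd for fasn-1. The 3 genes nearest to pod-2 were hlh-11 (0.12), which encodes a helix-loop-helix transcription factor, the unnamed WBGene00014309 (0.12) and fat-4 (0.13), a fatty acid desaturase gene. Nearest to fasn-1 were lrp-2 (0.11), of the low-density lipoprotein receptor family, nid-1 (0.11), which encodes the basement membrane protein nidogen, and mrp-1 (0.12), an ABC transporter gene.

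Other genes of the pathway were counted from lists by role, and at most 2 of each list, those with the smallest p in wild type at 0 h, are named. Beside these counts, 12.8% of all genes passed with ethanol in wild type at 0 h, 6.81% higher and 5.94% lower. The share was 3.94% at 6 h (2.78% higher, 1.16% lower) and 24.3% in the mutants (10.1% higher, 14.3% lower). The 9 elongase genes, which condense, had 2 higher and 1 lower with ethanol in wild type at 0 h, 1 higher at 6 h, and 2 higher and 2 lower in the mutants. elo-1, which lengthens polyunsaturated fatty acids, rose in all 3 comparisons, by 0.16 ± 0.049, 0.19 ± 0.048 and 0.25 ± 0.052 (adjusted p = 0.0314, 0.0283 and 0.000709). elo-9 fell at 0 h in wild type, from 7.60 to 5.25 CPM (−0.52 ± 0.14, adjusted p = 0.0162), and in the mutants (−0.46 ± 0.13, adjusted p = 0.00723).

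The 7 desaturases, which act on the products of synthesis and elongation, had 4 higher with ethanol at 0 h and 3 at 6 h in wild type, and 4 higher and 2 lower in the mutants. Their medians were 0.43, 0.36 and 0.39 on the log2 scale, above those of the 7 synthesis genes at 0.083, 0.058 and −0.076. fat-2, which makes linoleic acid from oleic acid, rose from 385 to 640.3 CPM in wild type at 0 h (0.74 ± 0.085, adjusted p = 1.17e-06) and from 594 to 986 CPM in the mutants (0.73 ± 0.083, adjusted p = 8.83e-08). fat-1, the omega-3 desaturase gene, rose by 0.43 ± 0.044 and 0.39 ± 0.048 in the same comparisons (adjusted p = 2.72e-07 and 3.48e-07). At 6 h fat-2 rose by 0.49 ± 0.084 (adjusted p = 0.00133), and fat-1 differed by 0.13 ± 0.044 (adjusted p = 0.0927), with an effect that differed between the times by 0.30 ± 0.062 (adjusted p = 0.00437). Of the let-767 relatives stdh-1 to stdh-4, 2 were tested. stdh-1 rose in wild type at 0 h (0.39 ± 0.088, adjusted p = 0.00394), and stdh-2 had at most 8 counts in any library of these comparisons and is given no fold change.

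The 7 genes that supply acetyl-CoA, malonyl-CoA turnover, biotin loading and NADPH had 3 higher in wild type at 0 h, 0 called at 6 h by edgeR or DESeq2 (1 at an unadjusted p under 0.05), and 5 higher and 2 lower in the mutants. idh-1, for cytosolic NADP-dependent isocitrate dehydrogenase, rose from 292 to 332 CPM at 0 h (0.19 ± 0.039, adjusted p = 0.00149) and from 352 to 392 CPM in the mutants (0.15 ± 0.039, adjusted p = 0.00409). At 6 h idh-1 differed by 0.00091 ± 0.039 (adjusted p = 0.994), and its ethanol effect differed between the times (0.19 ± 0.055, adjusted p = 0.0411). acs-19, for an acetyl-CoA synthetase, rose from 506 to 565 CPM at 0 h (0.17 ± 0.042, adjusted p = 0.00942) and from 447 to 623 CPM in the mutants (0.48 ± 0.048, adjusted p = 8.37e-09), and its ethanol effect differed between genotypes (0.32 ± 0.068, adjusted p = 0.00441). That difference had the sign of the one found for pod-2 and the opposite sign to the one for acly-1.

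Among the 5 listed regulators of lipid genes and 2 catalytic subunits of AMP-activated kinase, which in mammals phosphorylates and inhibits acetyl-CoA carboxylase, edgeR and DESeq2 called 0 with ethanol in wild type at either time. At an unadjusted p under 0.05 edgeR had 2 regulators at 0 h, and 1 regulator and 1 kinase subunit at 6 h. In the mutants 2 regulators were higher and 1 lower, and 1 kinase subunit was higher. mdt-15, a Mediator subunit gene, rose in the mutants (0.29 ± 0.041, adjusted p = 3.50e-06) and its effect differed between genotypes (0.21 ± 0.058, adjusted p = 0.0313). nhr-80, a nuclear receptor gene, was at 8.31 and 11.1 CPM in wild type at 0 h (0.42 ± 0.15, adjusted p = 0.0744) and rose in the mutants from 14.3 to 19.6 CPM (0.45 ± 0.13, adjusted p = 0.0115). aak-1 rose in the mutants (0.24 ± 0.084, adjusted p = 0.0343), while aak-2 was at 40.6 CPM without and 38.3 CPM with ethanol in wild type at 0 h (−0.080 ± 0.060, adjusted p = 0.457) and was higher in the mutants at 0 mM (0.30 ± 0.054, adjusted p = 4.41e-05). Of the 3 mitochondrial synthesis and lipoate genes, lias-1, for lipoate synthase, rose in wild type at 0 h (0.27 ± 0.051, adjusted p = 0.000830) and in the mutants (0.34 ± 0.048, adjusted p = 2.85e-06). F10G8.9 was at 19.7 and 23.1 CPM in wild type at 0 h (0.24 ± 0.083, adjusted p = 0.0614) and rose in the mutants (0.28 ± 0.080, adjusted p = 0.0102).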

How the data were processed

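Poly(A)-selected RNA was sequenced as paired ends. The authors aligned the reads with STAR 2.6.0a, kept reads with 1 alignment, and deposited raw counts per gene, with no normalization. The strand setting and annotation release are not given in the sources used here, and reads shared between near-identical genes are not counted. Identifiers match the Ensembl annotation of WBcel235 (the paper writes WBcel325), from which positions and exon lengths were taken. Sequences were not used here.

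Counts were tested with edgeR 4.0.16 in R 4.3.3 by quasi-likelihood after TMM scaling, for genes averaging 1 count or more, with Benjamini-Hochberg adjustment, a threshold of 0.05 and no fold cutoff. Wild-type contrasts used 20 libraries and 16210 genes, and contrasts with mutants all 30 and 16934. Standard errors come from the F statistic. Counting error is set by totals of 11812827 to 23505210. No pair among the 60 within groups was a copy (chi-square per gene of 3.63 or more). Alternatives were DESeq2 1.42.0, its size factors, other count filters, other sets of libraries, a replicate block and each library left out. Leaving out the rrn-3.1-rich libraries was chosen after seeing the data. Only the edgeR test of ethanol in wild type at the end of exposure was tried on simulated counts. The named genes are the 7, at most 2 per further list by p, the 3 nearest to pod-2 and fasn-1, and swsn-9. Members and lists were chosen with earlier results of these data known.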

Additional observations from a re-analysis of the deposited data

Results flagged for a closer look

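hpo-8 in wild type at 400 mM and 0 h had 1 library apart from the other 4. Replicate 3 was at 97.2 CPM and the others at 105 to 108 CPM, and its gap to the nearest library was 0.805 of the group's range on the log2 scale, above Dixon's 95% critical value for 5 libraries. This was 1 of 42 groups examined, where chance alone marks about 1 in 20. Without it the ethanol effect on hpo-8 stayed past the threshold, as it did without any other 1 library of that comparison (log2 fold change 0.18 to 0.22).

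The ethanol effect on fasn-1 differed between the end of exposure and 6 h later by −0.42 on the log2 scale (edgeR, adjusted p = 0.0237). The effect at the end of exposure differed between swsn-9 mutants and wild type by 0.35 for pod-2 (adjusted p = 0.00859) and by −0.26 for acly-1 (adjusted p = 0.0104). These were the 3 of 14 such differences among the 7 genes that passed.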

How the results depend on the processing

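Depth did not limit the 7 genes, whose lowest count was 1041. With 5 libraries a group, 95% intervals reached 0.085 to 0.16 to each side on the log2 scale for contrasts of 2 groups, so smaller changes could not be shown. These intervals are not adjusted for the number of genes, and some larger differences did not pass either. For fasn-1 with ethanol in wild type at 0 h the difference was −0.22 (edgeR, adjusted p = 0.0603). Each library left out also renewed the TMM scaling. Of single-gene values under the other alternatives, 433 kept sign and side of the threshold, 15 passed newly, 9 no longer passed and 12 turned sign; with 1 library left out these were 701, 27, 25 and 17. Counts of calls stayed within 1.5 times in 114 cases, and moved further in 20, and in 197 and 23 with a library left out. The cause was not tested for any of them.

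Replicates were collected on different days with both doses in parallel, but no source ties a number to a day, and the numbers were not taken as pairs. After each group's mean was removed, 0 and 400 mM libraries that share a number correlated at over 0.1 in 11 of 15 pairs (mean 0.210, from −0.0755 to 0.561), and 8 of 15 correlated best with their own number. With a replicate block, 4 of the 7 genes were called instead of 2 for ethanol in wild type at 0 h, with fasn-1 (−0.23, adjusted p = 0.0110) and let-767 (0.15, adjusted p = 0.0299) added. At 6 h 2 were called instead of 1, with pod-2 added (0.19, adjusted p = 0.0117), and 2 instead of 1 for the difference of the 2 effects, with acly-1 added (0.17, adjusted p = 0.0281). In the mutants acly-1 and art-1 were added (−0.10 and −0.12, adjusted p = 0.0291 and 0.0375). The block changed no other call among the 7 genes. Over all genes the block called 2932 instead of 2067 at 0 h, 1583 instead of 639 at 6 h, 1576 instead of 856 for that difference, and 1170 instead of 703 for the difference between genotypes.

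For ethanol at 6 h, DESeq2 called 2 of the 7 genes, as did all 30 libraries in the fit, and 0 were called with only the groups compared or without the 3 rrn-3.1-rich libraries, an alternative chosen after seeing the data. Over all genes, DESeq2 called 1111 there, and 350 were called without those libraries, against 639. For the difference between times, DESeq2 called 2 and the fit without those libraries 0, instead of 1. For time at 0 mM, that fit called 2 instead of 4, and 1704 instead of 3099 over all genes. For time at 400 mM, 0 instead of 1 were called with a mean count of at least 10, with only the groups compared and without those libraries. For the difference between genotypes, 1 instead of 2 were called with only the groups compared.

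Under these alternatives 2 values turned sign. acly-1 for ethanol at 6 h was −0.013 with DESeq2 size factors and with DESeq2, −0.011 with no filter, −0.0070 with a mean count of at least 10, −0.00014 with only the groups compared, −0.0040 with all 30 libraries and −0.016 without the rrn-3.1-rich ones. art-1 between genotypes at 400 mM was 0.011 with DESeq2 size factors and with DESeq2, 0.014 with no filter, 0.0097 with a mean count of at least 10 and 0.041 without those libraries.

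With 1 library left out, the number of the 7 genes called was 0 to 2 for ethanol at 6 h, 0 to 1 for the difference between times, 0 to 2 for time at 400 mM, 5 to 7 for ethanol in the mutants and 1 to 3 for the difference between genotypes. Over all genes it was 339 to 715 for ethanol at 6 h, 1950 (without replicate 4 of wild type at 0 mM) to 3705 for time at 0 mM, and 585 to 1372 (without replicate 5 of the mutants at 0 mM) for the difference between genotypes. Values that turned sign ran from −0.018 to 0.0018 for acly-1 (ethanol at 6 h), from −0.039 to 0.013 for art-1 (difference between times), from −0.086 to 0.069 for fasn-1 and from −0.0013 to 0.039 for hpo-8 (time at 400 mM), and from −0.15 to 0.015 for fasn-1 (difference between genotypes).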
